A study of Mus musculus with 8 samples.

Results

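The genes described here are the expressed long intergenic noncoding RNAs (lincRNAs) of a mouse epicardial cell line. A row of the count table was a member where its gene type was lincRNA and its counts summed to at least 100 over the 8 libraries. Of 2769 lincRNA rows among 35275 rows in all, 201 met that sum. H19 and Meg3, both imprinted, were left out by name, which gave 199 members. The members were thus selected on their summed counts over both groups, and these are the counts compared below. All 199 members also passed the filter on low counts, along with 20 other lincRNA rows, and 1799 lincRNA rows had no read in any library.

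A lincRNA is an RNA polymerase II transcript from its own locus outside coding genes. Most are capped, spliced and polyadenylated like mRNAs but made at lower levels, and many stay in the nucleus, where some act on chromatin, on nuclear bodies or on neighbouring genes. Others serve mainly as precursors of small nucleolar RNAs (snoRNAs) or microRNAs. HDAC3 is a class I histone deacetylase, the enzyme of the NCoR/SMRT corepressor complexes. The epicardium is the mesothelial layer on the surface of the heart, which feeds fibroblasts and vascular mural cells into the growing heart wall.

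The cells were an established epicardial line grown in high-glucose medium with fetal bovine serum. Cells transduced with an empty lentiviral vector (EV, 4 libraries) were set against cells given lentiviral CRISPR/Cas9 against Hdac3 (KO, 4 libraries), so both groups had met lentivirus. Total RNA was extracted with Trizol and the titles call the assay mRNA-seq. The labels do not say whether the 4 libraries of a group came from separate cultures, or whether the KO cells were 1 clone or a pool. The p-values measure the spread between libraries, which may be technical. KO replicate 1 is labelled KO in its title and empty vector in its transduction field, and it was kept as KO.

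Library totals ran from 18063745 to 24564892 counts, so that 3 counts in a library equalled 0.122 to 0.166 CPM (counts scaled by library size). Hdac3 mRNA did not separate the groups, with 61.9 ± 1.53 CPM in EV and 61.6 ± 3.23 CPM in KO (SD, n = 4 each), and therefore did not check the labels. The first principal component ran from -22.3 to -16.9 over EV and from 16.3 to 20.1 over KO, with KO replicate 1 among the KO values. Of 13 epicardial markers 12 passed the filter, with Wt1 at 341 CPM in EV and 263 CPM in KO, while Aldh1a2 stood at 0.407 and 0.251 CPM. Their summed level was 6195 to 6557 CPM in EV and 5497 to 5681 CPM in KO, and 2 of the 12 rose and 5 fell. The sum of 19 liver markers was 8.43 to 12.2 CPM in EV and 17.4 to 36.4 CPM in KO, highest in KO replicates 2 and 3. All 19 had reads, 17 had the higher mean in KO, and 5 of the 8 that passed the filter rose. Sums also separated the groups for 11 cardiomyocyte markers (146 to 158 CPM in EV and 113 to 130 in KO). That sum was mostly Tnnt2, with Nppa at 0, and 5 of the 10 with reads had the higher mean in KO. They did so for 9 endothelial markers (26.8 to 29.9 and 19.7 to 21.8 CPM), mostly Kdr (21.7 and 14.6 CPM). Kdr and Robo4 fell, Tek rose, and 5 of the 9 had the higher mean in KO. Means of Pecam1 and Cdh5 were at most 0.152 CPM. Sums of 9 blood markers were also apart (6.58 to 7.59 and 9.93 to 11.2 CPM), mostly Cd68, with Ptprc near 0. Of the 8 with reads, 3 had the higher mean in KO. Sums of 6 smooth muscle markers overlapped (1069 to 1298 and 1015 to 1208 CPM), and 3 of the 5 tested fell. In bulk RNA a change in cell number and a change in RNA per cell cannot be told apart. The part of these shifts in the lincRNA results was not tested. Counts without KO replicates 2 and 3 are given beside the main counts.

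The lincRNAs made up a small share of the RNA. Together the 199 members held 0.236% to 0.449% of a library's counts. Gm26809 and Yam1, a row that RefSeq ties to a ribosomal RNA pseudogene (below), were the largest contributors. Without them the share was 0.113% to 0.123%. The median member had 301 counts over the 8 libraries, with quartiles of 160.5 and 697.5. Mean levels over the 8 libraries were under 1 CPM for 52 members, at least 10 CPM for 21 and at least 100 CPM for 4. Every member had at least 1 count in each library. At the threshold itself, 6 members summed to exactly 100, among them Jpx, Gm26690 and Gm26724, while Gm17690 at 98, RP23-13C17.6 at 97 and Gm26641 at 93 counts lay just outside.

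The row named Yam1, after a lincRNA first described in muscle cells, had the highest mean level and by far the widest spread among the 10 most abundant members. Its levels in EV replicates 1 to 4 were 532, 2319, 1537 and 331 CPM, and in KO replicates 1 to 4 they were 410, 524, 1733 and 432 CPM. EV replicates 2 and 3 and KO replicate 3 stood high, so the groups overlapped over nearly their whole range. Its log2 fold change was -0.61 with an SE of 0.466 (adjusted p = 0.370, edgeR quasi-likelihood test). It passed the threshold without KO replicate 3 (log2 fold change -1.37, adjusted p = 0.0243). With the same overlapping groups and no filter on low counts, edgeR gave -0.62 and adjusted p = 3.3e-37. That p-value came with nearly the same log2 fold change as the main fit, and it is not read as a difference between the groups. The row covers chr17:39846958-39848788 on mm10. In RefSeq that interval overlaps Rn18s-rs5, a pseudogene related to 18S ribosomal RNA, at chr17:39846354-39848202. GENCODE M21 names the row Gm42418, which RefSeq lists as a synonym of Rn18s-rs5, so both names mark the same locus. The level of this row is thus that of a ribosomal RNA pseudogene locus, and its reads cannot be told from those of ribosomal RNA here.

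Other abundant lincRNAs did not pass the threshold, apart from Malat1, Neat1 and Snhg18, which are described further on. Gm26809 had 681, 866, 758 and 853 CPM in EV and 758, 762, 806 and 810 CPM in KO, a log2 fold change of -0.01 (adjusted p = 0.922). The next member, 1810058I24Rik, known to encode a mitochondrial micropeptide, had 194 ± 7.39 CPM in EV and 193 ± 15.8 CPM in KO (SD, n = 4 each; adjusted p = 0.887). 1700020I14Rik, also called Cyrano, a conserved RNA known for directing the decay of miR-7, had 151 ± 11.6 and 156 ± 10.4 CPM (SD, n = 4 each; adjusted p = 0.592). C330006A16Rik (41.0 and 42.1 CPM) and B230354K17Rik (32.4 and 34.6 CPM) also had overlapping groups. Per length, on the deposited FPKM scale, the order changed. Yam1 (657 FPKM in EV and 415 in KO), Gm26809 (270 and 258) and 1810058I24Rik (78.4 and 75) remained the top 3, while Malat1 had 12.2 and 16.2 FPKM.

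**Figure D1:**
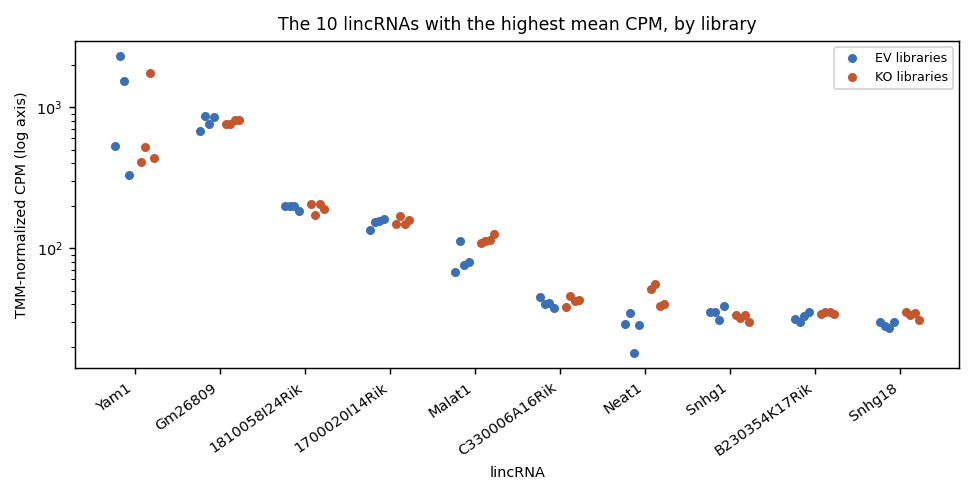
TMM-normalized CPM (log axis) of the 10 lincRNAs with the highest mean, with 1 point per library and EV beside KO. Yam1 runs from 331 to 2319 CPM with both groups intermixed, Neat1 is higher in all 4 KO libraries than in any EV library, and 1 EV library of Malat1 lies within the KO range.

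Between the groups, 20 of 199 lincRNAs changed past an adjusted p of 0.05, 14 higher and 6 lower in KO. That is 10.1% of the members (7.04% higher and 3.02% lower), against 26.0% of the 12801 genes tested (12.6% higher and 13.4% lower) and 27.1% of the protein-coding genes (13.0% higher and 14.1% lower). At an unadjusted p under 0.05 there were 37 members (18.6%), against 36.8% of all genes tested and 38.1% of the coding genes. The median log2 fold change of the members was 0.06, against 0.01 over all genes tested, with 114 members above 0 and 85 below. Groups did not overlap for 21 members (10.6%), against 26.5% of all genes tested and 27.7% of the coding genes. Without KO replicate 1, 9 members were higher, and without KO replicates 2 and 3 together the counts were 7 higher and 4 lower. Counts over all genes dropped as well, from 1613 higher and 1711 lower in the main fit. They were 1239 and 1382 without KO replicate 1, and 880 and 1094 without KO replicates 2 and 3. The split moved with the scaling. Library totals in place of TMM factors gave 10 higher and 11 lower, and over all genes 1039 higher and 2414 lower in place of 1613 and 1711. On deposited FPKM with a pseudocount of 1 it was also 10 higher and 11 lower, and over all genes 833 higher and 1973 lower.

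In each class of count sum the share called was lower for lincRNAs than for coding genes. With at least 100 and under 200 counts, 2 of 65 lincRNAs (3.08%) and 99 of 509 coding genes (19.4%) passed the threshold, at median SEs of 0.333 and 0.334 on the log2 scale. The median size of the log2 fold change in that class was 0.28 for lincRNAs and 0.40 for coding genes. From 200 counts to under 400 the shares were 8.47% and 20.7%, from 400 to under 1000 they were 13.5% and 20.7%, and from 1000 to under 4000 they were 17.9% and 22.9%. Of the members with 4000 counts or more, 3 of 10 passed (30.0%), beside 31.4% of coding genes. Differences between these shares were described and not tested. Antisense genes and processed transcripts were not split by count sum.

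**Figure D2:**
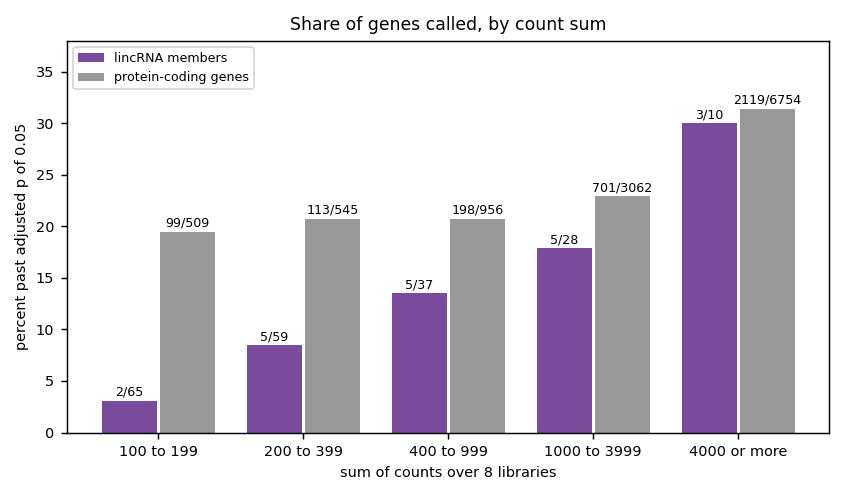
Percent of genes past an adjusted p of 0.05 in 5 classes of count sum, for lincRNA members and protein-coding genes, with called and tested numbers above each bar. Bars for lincRNAs are lower in each class, 3.08% beside 19.4% in the lowest and 30.0% beside 31.4% in the highest.

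**Figure D3:**
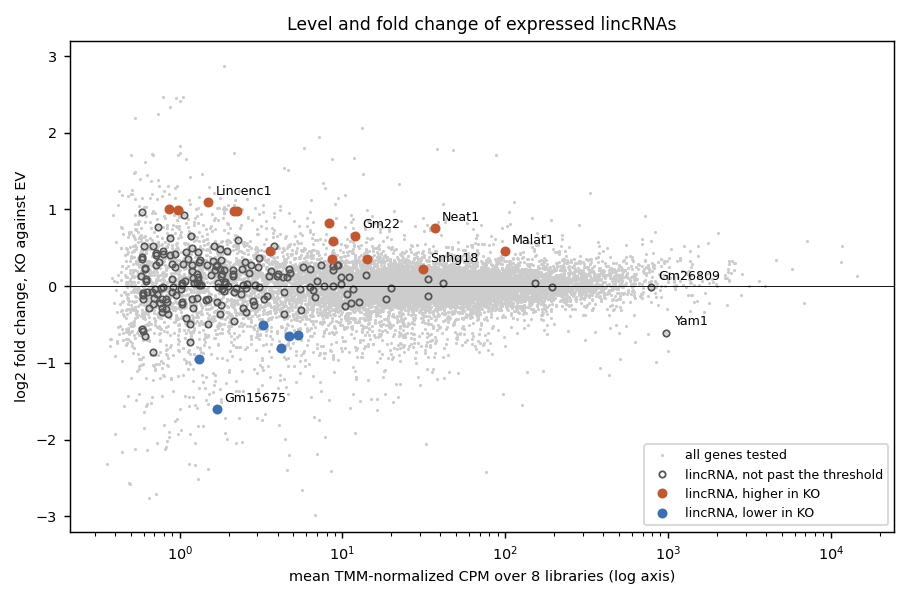
Log2 fold change (KO against EV) against mean CPM (log axis) for all genes tested and the 199 members. Risen lincRNAs lie between 0.22 and 1.09 and fallen ones between -1.60 and -0.51.

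Among RNAs that stay in the nucleus, Neat1 and Malat1 rose in KO. These neighbouring genes on chromosome 19 make unrelated transcripts. Neat1 is the scaffold of paraspeckles, nuclear bodies that hold RNA-binding proteins, and Malat1 sits in nuclear speckles, where splicing factors gather. GENCODE M21 has 4 transcript models of Neat1, and its single row of counts does not separate them. Neat1 (chr19:5824708-5845478, minus strand) had 28.9, 34.6, 18 and 28.6 CPM in EV and 51.2, 55.9, 38.8 and 40.4 CPM in KO. Every KO library was above every EV library, and the difference was 1.69-fold (log2 0.75, SE 0.141, adjusted p = 0.000527). Malat1 (chr19:5795690-5802672, minus strand) had 67.3, 112, 76.2 and 79.2 CPM in EV and 109, 113, 114 and 125 CPM in KO. The groups overlapped through EV replicate 2, and the other 3 EV libraries lay below all KO libraries. Its difference was 1.37-fold (log2 0.46, SE 0.104, adjusted p = 0.00278). Both calls held with any 1 library left out. On FPKM with a pseudocount of 1 and no filter, neither passed (adjusted p = 0.0562 for Neat1 and 0.106 for Malat1), and Malat1 did not pass with a pseudocount of 0.1 either (0.0692).

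The members at the X-inactivation centre did not pass the threshold. Xist itself is not a member and was close to absent, with 10 counts over the 8 libraries (0.079 CPM in EV and 0.048 CPM in KO). Ftx, which lies beyond Jpx from Xist and is known for promoting Xist expression, had 7.12 ± 1.38 CPM in EV and 6.46 ± 0.688 CPM in KO (SD, n = 4 each; adjusted p = 0.482). Jpx, an activator of Xist, had 0.631 ± 0.341 and 0.563 ± 0.182 CPM (SD, n = 4 each; adjusted p = 0.862), and its log2 fold change of -0.12 changed sign when EV replicate 1 was left out (0.20).

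The protein partners of these RNAs are read against the 26.0% of all genes tested that were called (12.6% higher and 13.4% lower). Among 19 paraspeckle proteins none rose and 2 fell, Sfpq (log2 fold change -0.12) and Rbm14 (-0.19), both needed to build the body on Neat1. Nono, the partner of Sfpq, had a log2 fold change of -0.01 (adjusted p = 0.887). The median over the 19 was -0.05, against 0.01 over all genes tested. Of 13 known partners of Xist, itself close to absent here, Wtap (-0.17) and Yy1 (-0.13) fell and none rose.

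Hosts of snoRNAs are spliced transcripts whose introns, or sometimes exons, are cut down to the small RNAs that guide modification of ribosomal RNA. Of the 199 members 8 are on the list of such hosts. Snhg18 and Snhg20 rose, and the other 6 did not pass the threshold. Snhg20 is on the list by name, but in GENCODE M21 it held a small Cajal body RNA and a microRNA and no snoRNA entry. Over the whole list of 16 tested hosts of any gene type, 4 rose and none fell, beside 12.6% of all genes tested higher and 13.4% lower. The median log2 fold change of the list was 0.22, against 0.01 over all genes. It was 0.06 over the lincRNA members, 0.11 over processed transcripts and 0.13 over antisense genes. The other hosts to rise were Gas5 (81.2 to 106 CPM, log2 fold change 0.39) and 1500012F01Rik, also called Zfas1 (29.7 to 42.5 CPM, 0.52), neither of which has the type lincRNA.

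Snhg18 (chr15:32240569-32244662, minus strand, 2 exons) carries the C/D box snoRNA Snord123 in its intron at chr15:32241853-32241923. The snoRNA sequence from GENCODE M21 is shown because it is the mature product of a host that rose. Capitals mark a C box (TGATGA) and matches to the D box (CTGA), the elements that bind the snoRNP proteins.
Snord123: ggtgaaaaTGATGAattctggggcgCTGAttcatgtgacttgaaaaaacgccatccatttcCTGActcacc
The host had 30.0, 28.0, 27.3 and 29.8 CPM in EV and 35.3, 33.5, 34.6 and 30.8 CPM in KO. All KO libraries were above all EV libraries, but KO replicate 4 only just, and the difference was 1.17-fold (log2 0.22, SE 0.0654, adjusted p = 0.0172). The call was lost in 4 of 8 fits that left out 1 library (EV replicates 2 and 3, KO replicates 1 and 3, adjusted p = 0.0512 to 0.0635), with library totals (adjusted p = 0.0619), on each of 3 FPKM scales and without KO replicates 2 and 3 together (adjusted p = 0.131), so it held in 10 of 19 alternatives. Counts of the host gene say nothing of the level of the snoRNA itself.

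Snhg20, named 2810008D09Rik in the table (chr11:117076790-117078955, plus strand), holds the precursor of miR-6516 and an overlapping small Cajal body RNA in an exon. Both RefSeq mature arms (GRCm38.p6) are shown for the same reason, with the seed, bases 2 to 8, in capitals. The arms have different seeds.
mmu-miR-6516-5p: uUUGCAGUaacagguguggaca
mmu-miR-6516-3p: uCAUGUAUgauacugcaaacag
The host had 0.603, 0.481, 0.555 and 0.949 CPM in EV and 1.33, 1.86, 1.3 and 0.790 CPM in KO. EV replicate 4 was above KO replicate 4, so the groups overlapped. The log2 fold change was 0.997 (SE 0.324, adjusted p = 0.0291), and the call was lost in 6 of 8 fits without 1 library (all but EV replicate 4 and KO replicate 4, adjusted p up to 0.110), and it held in 8 of 16 alternatives.

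The other hosts had small differences. Snhg1, the most abundant of them and the host of 8 snoRNAs, had 35.2 ± 3.47 CPM in EV and 32.2 ± 1.84 CPM in KO (SD, n = 4 each; adjusted p = 0.223). Snhg12 had 8.01 and 9.56 CPM, a log2 fold change of 0.26 (adjusted p = 0.168) that passed only without EV replicate 1 among the fits run (0.37, adjusted p = 0.0367). Snhg6, Snhg7, Snhg4 and 2410004N09Rik had log2 fold changes of 0.11 to 0.28 with adjusted p from 0.410 to 0.537. In GENCODE M21, 10 members held 24 snoRNA entries, and of these hosts 1 rose (Snhg18) and none fell. MicroRNA entries numbered 22 in 7 members, 14 of them in Mirg, and of these hosts 1 rose (Snhg20) and none fell. Of all genes tested 12.6% were higher and 13.4% lower.

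Mirg, the imprinted host of a microRNA cluster in the Dlk1-Dio3 region, had 0.822, 1.18, 0.417 and 0.522 CPM in EV and 1.75, 0.637, 1.85 and 1.37 CPM in KO. KO replicate 2 lay within the EV range and the other 3 KO libraries above it. The log2 fold change was 0.93 (SE 0.357, adjusted p = 0.0636). It passed without EV replicate 2 (adjusted p = 0.0278), without KO replicate 2 (0.0176) and with no filter on low counts (0.0250). Dlk1, the tested coding gene nearest to it and a gene of the same imprinted region, fell by 0.78 on the log2 scale.

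The members on the growth list and on the heart and Hox list did not pass the threshold. Pvt1, the neighbour of Myc, had 6.72 ± 0.273 CPM in EV and 6.49 ± 1.08 CPM in KO (SD, n = 4 each; adjusted p = 0.801). 1190002F15Rik, known as Lockd and transcribed next to the cell cycle inhibitor Cdkn1b, had a log2 fold change of -0.11 (adjusted p = 0.775), while Cdkn1b fell by 0.19. Fendrr, required for heart and body wall development and transcribed divergently from Foxf1, had 1.52 ± 0.195 and 1.83 ± 0.306 CPM (SD, n = 4 each; adjusted p = 0.407). Braveheart (Gm20748), known for cardiac lineage commitment of stem cells, had 2.25 ± 0.431 and 2.79 ± 0.375 CPM (SD, n = 4 each; adjusted p = 0.252). Of the lists these genes come from, the heart and Hox list had 5 tested genes, with Hotairm1 higher and Wt1os, antisense to Wt1, lower, neither of them a member.

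Other lincRNAs that rose included 3300005D01Rik, Gm22 and Gm26578, each with separate groups. 3300005D01Rik (chr17:5798657-5803240, plus strand) had 6.90, 5.11, 6.85 and 5.08 CPM in EV and 9.98, 9.21, 11.6 and 11.2 CPM in KO. The lowest KO library was above the highest EV library, and the difference was 1.76-fold (log2 0.82, SE 0.127, adjusted p = 7.85e-05). Gm22 (chr8:122269569-122272650, plus strand), a single-exon row that GENCODE M21 names Zfp469, had 9.26, 9.88, 10.04 and 7.92 CPM in EV and 13.8, 15.8, 13.1 and 15.9 CPM in KO. Its groups were separated as well, at 1.58-fold (log2 0.66, SE 0.103, adjusted p = 8.28e-05). Gm26578 (chr8:32008504-32015759, plus strand) had 9.04, 7.30, 6.25 and 5.46 CPM in EV and 9.18, 11.2, 10.7 and 10.9 CPM in KO, and KO replicate 1 exceeded EV replicate 1 by little (log2 0.59, SE 0.132, adjusted p = 0.00251).

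Rises of about 2-fold came from lincRNAs of low level. Lincenc1, known from naive embryonic stem cells, had 0.712, 0.787, 0.509 and 1.80 CPM in EV and 1.86, 2.01, 2.11 and 2.16 CPM in KO. EV replicate 4 stood close to the KO libraries, apart from the other EV libraries. The difference was 2.13-fold (log2 1.09, SE 0.302, adjusted p = 0.0116), the largest log2 rise among the called members, and did not pass without KO replicates 2 and 3 (adjusted p = 0.0841). Gm12603, named Wincr1 after its induction by Wnt signalling, had 1.26, 1.49, 2.18 and 1.09 CPM in EV and 3.56, 2.60, 2.93 and 2.87 CPM in KO, with separate groups (log2 0.98, SE 0.219, adjusted p = 0.00255). AI115009, antisense to the adenylate kinase gene Ak5, had 1.43 ± 0.456 and 2.86 ± 0.478 CPM (SD, n = 4 each), also with separate groups (log2 0.97, adjusted p = 0.00376 by edgeR). RP23-149A5.3 had 0.329, 0.612, 0.648 and 0.664 CPM in EV and 1.06, 1.71, 1.16 and 0.707 CPM in KO, a log2 fold change of 1.01 (adjusted p = 0.0331) that was lost in 6 of 8 fits without 1 library (EV replicates 1 to 3 and KO replicates 1 to 3, adjusted p up to 0.128). It held in 8 of 18 alternatives, and DESeq2 was among those in which it was lost.

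Smaller rises were close to the threshold. 5830416P10Rik, also called Mirt1 and described in infarcted heart, had 5.97, 8.43, 9.03 and 6.83 CPM in EV and 9.45, 9.94, 9.10 and 10.4 CPM in KO. The highest EV library was just under the lowest KO library (log2 0.35, SE 0.123, adjusted p = 0.0406), and the call was lost in 6 of 8 fits without 1 library (EV replicates 1 and 4 and each KO replicate, adjusted p up to 0.121). It was also lost with DESeq2, with library totals, on each of 3 FPKM scales and without KO replicates 2 and 3 together, with adjusted p up to 0.151, so it held in 7 of 19 alternatives. 5430416N02Rik rose from 3.03 ± 0.266 to 4.16 ± 0.470 CPM (SD, n = 4 each; log2 0.45, adjusted p = 0.0341 by edgeR). Its call was lost in 5 such fits (EV replicates 2 to 4 and KO replicates 1 and 2, up to 0.0927), and it held in 11 of 19 alternatives, DESeq2 and library totals not among them. Gm20204, whose groups overlapped, had 12.5 and 15.9 CPM (log2 0.35, adjusted p = 0.0247) and lost its call in 4 (EV replicates 3 and 4, KO replicates 2 and 3, up to 0.0929), on each FPKM scale and with library totals, and held in 10 of 19 alternatives. Gm20204, like Gm2670 and C230014O12Rik below, was named after its values were seen, to account for each called member.

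The lincRNAs that fell were led by Gm15675 (chr1:130429781-130437191, minus strand, 3 exons). It had 3.01, 3.15, 1.43 and 2.56 CPM in EV and 0.584, 1.13, 0.948 and 0.665 CPM in KO. EV replicate 3 was the lowest EV library and still above each KO library. The difference was 3.03-fold (log2 -1.60, SE 0.285, adjusted p = 0.000327), the largest of all members. E330013P04Rik (5.35 to 3.05 CPM, log2 -0.81, adjusted p = 0.00118), 2010300F17Rik (5.76 to 3.67 CPM, -0.65, 0.00255) and the lincRNA row named Nav1 (6.52 to 4.21 CPM, -0.63, 0.00213) had separate groups as well. GENCODE M21 calls the last of these Gm38399, a transcript inside the coding gene Nav1 on the same strand. Gm2670 (1.74 to 0.900 CPM, log2 -0.95, adjusted p = 0.0237) and C230014O12Rik (3.82 to 2.70 CPM, -0.51, 0.0356) had overlapping groups. Their calls were lost in 4 fits (EV replicate 1 and KO replicates 2 to 4) and in 6 fits (EV replicates 3 and 4 and each KO replicate) without 1 library, with adjusted p up to 0.0839 and 0.107. Over all alternatives they held in 11 of 17 and in 10 of 19.

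**Figure D4:**
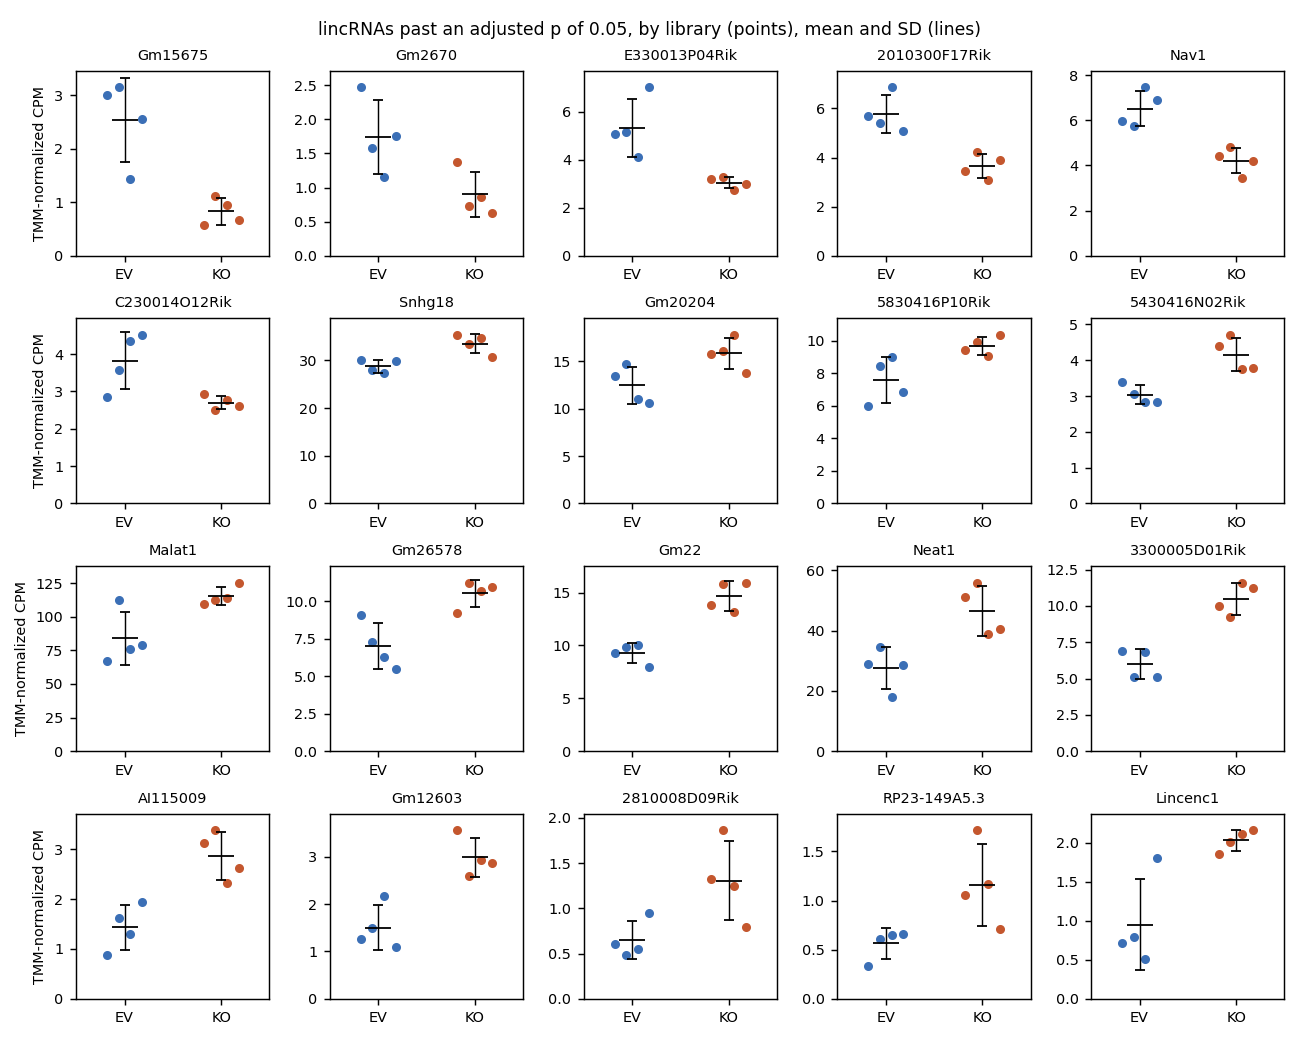
TMM-normalized CPM of each library for the 20 lincRNAs past the threshold, ordered by log2 fold change, with the mean and SD of 4 libraries per group. Gm15675 has the largest fall (2.54 to 0.831 CPM) and Lincenc1 the largest log2 rise (0.953 to 2.03 CPM), with EV replicate 4 of Lincenc1 near the KO libraries.

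The tested coding genes nearest to the changed lincRNAs, at any distance, had often changed too. For 13 of the 20 called members (65.0%) the nearest tested coding gene was called, against 32 of the 179 members not called (17.9%) and 26.0% of all genes tested. In 12 of the 13 pairs both went the same way, 7 higher and 5 lower. These shares are a description, since members and neighbours were measured in the same libraries and overlapping genes can share reads. They also compare unlike distances, with a median gap of 7216.5 bases for called members and 678 for the others. Over all 199 pairs the log2 fold changes had a Pearson correlation of 0.31 and a Spearman correlation of 0.24. For the 123 pairs overlapping or within 5 kb these were 0.47 and 0.32. For the 25 pairs more than 50 kb apart they were -0.11 and -0.08, and 4 of the 13 changed pairs were among those 25.

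Gm15675 lies 1835 bases downstream of Cd55, a membrane inhibitor of complement, on the same strand. Cd55 fell from 128 ± 12.5 to 23.9 ± 0.826 CPM (SD, n = 4 each; log2 -2.42, adjusted p = 1.2e-14 by edgeR), beside -1.60 for the lincRNA. Gm2670 overlaps Wnt5a, a noncanonical Wnt ligand, on the opposite strand, and Wnt5a fell from 427 to 281 CPM (log2 -0.60). Whether the counting used strand is not given here, so reads of the pair cannot be told apart, and the same holds for 2010300F17Rik and Skap1 (log2 -1.20, under 1 CPM in both groups) and for AI115009 and Ak5 (-0.10, adjusted p = 0.160). The Nav1-named lincRNA shares its strand and interval with coding Nav1, which fell by 0.28. At 60012 bases from C230014O12Rik, Pbx3, a homeodomain cofactor of Hox proteins, fell from 28.0 to 18.8 CPM (log2 -0.57).

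Snhg18 and Sema5a, which encodes an axon guidance protein, start 151 bases apart on opposite strands. Sema5a rose from 14.9 ± 1.43 to 20.6 ± 2.80 CPM (SD, n = 4 each; log2 0.46, adjusted p = 0.00171 by edgeR). Snhg18 was the single called member among the 48 whose start lay within 5 kb of the start of a divergent coding gene. Frmd8, 4223 bases from Neat1, rose by 0.29. Farther away, Nrg1, a growth factor needed for heart trabeculation, rose by 0.36 at 90300 bases from Gm26578, and Enc1 rose by 0.29 at 181930 bases from Lincenc1. Sec14l1 (0.35), Zfpm1 (0.15) and Snx9 (0.14) rose beside Snhg20, Gm22 and 3300005D01Rik. Gm12603 and Mtap, 52507 bases apart, were the pair that went opposite ways, the lincRNA higher and Mtap lower (-0.16). A changed neighbour did not always come with a changed lincRNA. Plac1 rose by 1.78 and Oip5 fell by 0.77, while RP23-173F3.5 (0.45, adjusted p = 0.256) and 1700020I14Rik beside them did not pass.

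**Figure D5:**
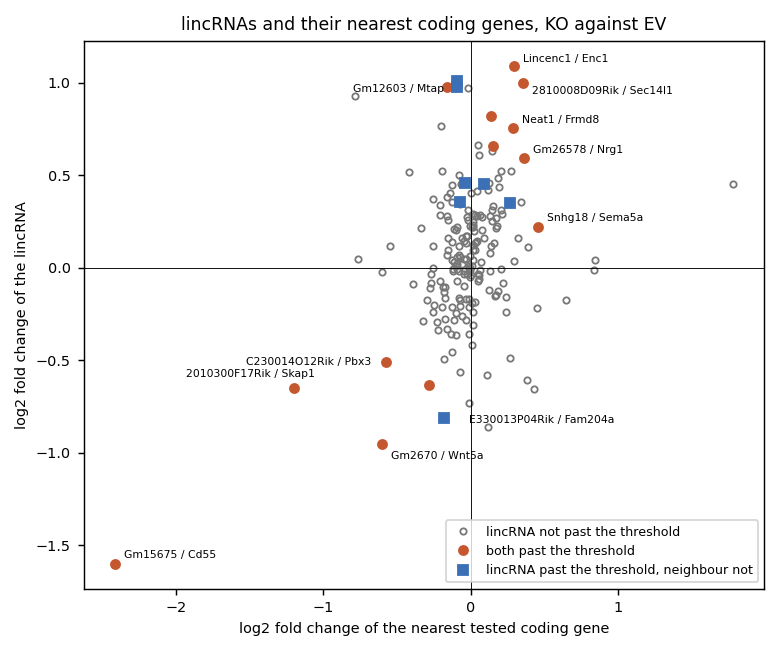
Log2 fold change (KO against EV) of each of 199 lincRNAs against that of its nearest tested coding gene. Filled circles mark pairs in which both passed the threshold, 12 of 13 of them in the same-direction quadrants, and Gm15675 with Cd55 lies farthest out (-1.60 and -2.42).

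Promoter sequence, 250 bases before to 50 after a start, was matched in RefSeq (GRCm38.p6) for 101 members. Their median GC content was 59.3% with 20 CpG dinucleotides, against 52.7% and 7 over 32851 promoters in the table. The 10 called members among them had medians of 50% and 8, and the 91 others 60.0% and 20. Both strands were searched for AP-1 (TGANTCA), the nuclear receptor hexamer (AGGTCA), the cAMP response element (TGACGTCA) and the E-box (CACGTG). AP-1 was present in 2 of the 10 and 4 of the 91, against 7.81% of all promoters, and the hexamer in 1 of the 10 and 9 of the 91, against 16.3%. The cAMP response element was in none of the 10 and 6 of the 91, against 1.79%, and the E-box in 1 of the 10 and 9 of the 91, against 7.15%. A match describes letters in the window and not a bound site.

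Shown are the promoters of 4 lincRNAs that rose, for reading beside their values. They are the divergent start of Snhg18, the most abundant called member Malat1, and the pair with AP-1 letters. Capitals mark the motif matches, and the start is counted so that -1 is the base before it.
Snhg18, chr15:32244613-32244912, minus strand: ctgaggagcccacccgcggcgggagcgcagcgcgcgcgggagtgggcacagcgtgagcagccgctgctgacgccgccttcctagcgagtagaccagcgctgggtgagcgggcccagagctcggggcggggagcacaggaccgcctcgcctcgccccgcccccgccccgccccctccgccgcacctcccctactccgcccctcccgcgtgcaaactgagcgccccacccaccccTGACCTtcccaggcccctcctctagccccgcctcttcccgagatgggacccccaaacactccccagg
Malat1, chr19:5802623-5802922, minus strand: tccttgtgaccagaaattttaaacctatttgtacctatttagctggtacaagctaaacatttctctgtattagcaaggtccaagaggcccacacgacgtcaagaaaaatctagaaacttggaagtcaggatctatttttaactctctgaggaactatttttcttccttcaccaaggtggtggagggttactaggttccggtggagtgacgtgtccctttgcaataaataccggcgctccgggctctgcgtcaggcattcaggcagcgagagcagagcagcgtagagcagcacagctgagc
3300005D01Rik, chr17:5798407-5798706, plus strand: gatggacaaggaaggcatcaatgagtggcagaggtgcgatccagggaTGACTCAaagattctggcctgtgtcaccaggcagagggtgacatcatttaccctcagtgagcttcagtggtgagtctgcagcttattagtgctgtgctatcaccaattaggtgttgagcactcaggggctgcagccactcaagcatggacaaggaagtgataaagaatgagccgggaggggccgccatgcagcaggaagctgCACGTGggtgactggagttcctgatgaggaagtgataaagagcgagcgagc
5830416P10Rik (Mirt1), chr19:53464747-53465046, minus strand: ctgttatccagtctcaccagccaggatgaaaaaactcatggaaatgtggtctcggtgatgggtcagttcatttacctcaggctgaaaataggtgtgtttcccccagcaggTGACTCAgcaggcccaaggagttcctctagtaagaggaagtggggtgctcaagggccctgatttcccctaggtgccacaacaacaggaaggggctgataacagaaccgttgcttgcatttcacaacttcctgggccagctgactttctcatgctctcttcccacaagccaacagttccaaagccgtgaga
Snhg18 has 31 CpG and 75.3% GC, with the hexamer on the other strand (TGACCT) from base -17. Malat1 has 10 CpG and none of the 4 motifs. AP-1 letters (TGACTCA) begin at -203 in 3300005D01Rik, which has an E-box from -1, and at -140 in Mirt1, and these windows hold 6 and 3 CpG.

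By gene ID 189 of the 199 were found in GENCODE M21, where 128 are still typed lincRNA, 25 antisense, 15 bidirectional promoter, 14 processed transcript and 3 protein coding. Single-exon models numbered 12, with 1 called, and models of 2 or more exons 177, with 18 called. Of the 199 members, 80 overlapped another row of the table, 71 of them on the opposite strand, and among the 119 that overlapped none, 9 rose and 2 fell. These counts are to be read beside the 10.1% of all members called (7.04% higher and 3.02% lower). Of all genes tested 26.0% were called (12.6% higher and 13.4% lower).

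Genes that act in the removal of noncoding RNA were called at shares to be read against 26.0% of all genes tested (12.6% higher and 13.4% lower). Of 26 tested genes of the nuclear exosome and Integrator, which trim and terminate such transcripts, none rose and 4 fell, Ints7 (log2 fold change -0.35), Zcchc8 (-0.26), Exosc10 (-0.20) and Ints2 (-0.19). Of 15 genes of nonsense-mediated decay, the pathway that degrades spliced snoRNA host transcripts, Upf3a rose by 0.22 and Smg9 (-0.31), Smg8 (-0.21) and Smg6 (-0.17) fell. The medians were -0.09 and -0.03, against 0.01 over all genes tested.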

How the data were processed

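Gene expression was measured by RNA-seq in 8 libraries, 4 EV and 4 KO, grouped by title. The authors deposited unnormalized counts for 35275 rows, and FPKM values with gene type and coordinates for the same rows. The submitters' processing notes name mm10 and DESeq 1.6.3. Those sources name no aligner, counting tool, annotation release or use of strand. Counts were fitted over all genes with edgeR 4.0.16 (R 4.3.3): filterByExpr (minimum count 10, minimum total 15), TMM factors, a quasi-likelihood F test of KO against EV, and Benjamini-Hochberg adjustment over 12801 genes, called at an adjusted p under 0.05. CPM values are TMM-normalized and CPM precision follows from the totals, 18063745 to 24564892 counts. Each SE was obtained by dividing the absolute log2 fold change by the square root of F. The fitting script was tested on simulated data. Alternatives were DESeq2 1.42.0, limma 3.58.1 (voom, and log2 FPKM with a pseudocount of 1 or 0.1, at least 0.5 FPKM or no filter), library totals, upper-quartile factors, other filters and sums, a replicate block, and each library left out. Leaving out KO replicates 2 and 3 together was chosen after seeing the data. Role lists were matched by table symbol or GENCODE M21 symbol of the same gene ID. The nearest tested coding gene was taken from the deposited coordinates. Members named in the text are those on the role lists, those past the threshold with separate groups and at least 0.5 CPM in the higher group, the 10 most abundant, those at the sum of 100 and the rows just under it, and neighbours described by position; of each list of coding partners, at most 4 with the smallest adjusted p. Nono, not among the 4 paraspeckle genes with the smallest adjusted p, was an exception, named as the partner of Sfpq. Members and lists were chosen with earlier results of these data known.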

Additional observations from a re-analysis of the deposited data

Results flagged for a closer look

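Among 78 groups of 4 libraries, from the 39 lincRNAs whose values are examined singly, 3 held a library far from the other 3 by Dixon's test; chance marks about 1 group in 20. RP23-149A5.3 stood at 0.329 CPM in EV replicate 1 and at 0.612 to 0.664 CPM in the other EV libraries. 1810058I24Rik had 183 CPM in EV replicate 4 and 197 to 199 CPM in the other EV libraries. Yam1 had 1733 CPM in KO replicate 3 and 410 to 524 CPM in the other KO libraries.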

How the results depend on the processing

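Of the 20 called lincRNAs, 9 passed the threshold in every alternative that gave them a value and 12 in every fit without 1 library, and none of the 20 changed direction in an alternative. The 14 higher members became 8 on FPKM with a pseudocount of 0.1 and 8 with a pseudocount of 1 and no filter, 7 without KO replicates 2 and 3, 9 among the 119 members that overlap no other gene, and 9 to 15 with 1 library left out. Over all genes the 1613 higher became 775, 814 and 880 in the FPKM settings and without KO replicates 2 and 3, in that order. With 1 library left out they were 1239 to 1584. The 6 lower members became 11 on FPKM with a pseudocount of 0.1 or 1, 11 with library totals, 2 among members that overlap no other gene, and 5 to 6 with 1 library left out. Over all genes the 1711 lower became 1887 and 1973 on FPKM with a pseudocount of 0.1 and 1, and 2414 with library totals. With 1 library left out they were 1382 to 1775. The cause was not tested. Whether the replicate numbers pair the libraries was not settled. Same-numbered deviations correlated weakly, at 0.124, -0.034, 0.063 and 0.091, and other pairs at -0.114 to 0.063. Of the 4 EV libraries, 3 correlated best with their own number. The main fit used no block. A replicate block gave 15 higher and 6 lower members, and over all genes 3737 calls in place of 3324.

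Small differences that never passed the threshold changed sign under some settings. With 1 library left out, Jpx ranged from -0.391 to 0.200 (above 0 at 0.200, 7.5e-05 and 0.032 without EV replicate 1, EV replicate 4 and KO replicate 3). 1700020I14Rik moved from 0.05 to -0.0024 on each FPKM scale, -0.0043 with library totals and ranged from -0.0090 (without EV replicate 1) to 0.081 with 1 library left out. Pvt1 ranged from -0.126 to 0.039 (without KO replicate 3) and reached 0.136 without KO replicates 2 and 3, and 1190002F15Rik ranged from -0.262 to 0.080 (without EV replicate 1). 1810058I24Rik ranged from -0.044 to 0.039 (without KO replicate 2) and had 0.020 without KO replicates 2 and 3. Gm26809 ranged from -0.080 to 0.037, and was above 0 at 0.037, 0.029, 0.0063 and 0.0040 without EV replicates 2 and 4 and KO replicates 1 and 2. C330006A16Rik moved from 0.04 to -0.013 and -0.012 on FPKM with pseudocounts of 0.1 and 1, -0.011 with library totals and -0.015 without KO replicates 2 and 3. Depth limits the 124 members under 400 counts, whose median SE was 0.249 from 200 counts up and 0.333 below that, on the log2 scale.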
